A study of Mus musculus with 18 samples.

Results

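Keratins and desmosomal proteins are the hallmark cytoskeleton and adhesion proteins of epithelia, and their genes were followed here on expression arrays of C2C12 cells, a mouse skeletal myoblast line. The 8 genes described here are the type I keratins Krt14, Krt19 and Krt18, the type II keratins Krt5 and Krt8, and the desmosomal plaque genes Pkp2, Dsp and Jup. They were chosen by name, with the measured higher signals of Pkp2 and Krt14 in differentiated PIP4K2B-depleted cells already known: a row of the array table counted when its annotation gave exactly 1 symbol and that symbol was on the list, and the brightest row would have been kept for a gene with several. Each of the 8 genes had 1 such row, out of 19938 genes measured in all.

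The study asked how the lipid kinase PIP4K2B and TAF3, a subunit of the basal transcription factor TFIID, act together on gene expression. Every cell population carried a knockdown of endogenous TAF3 and was rescued with murine TAF3, either wild type (WT-TAF3) or KK-TAF3, a mutant made to lose phosphoinositide binding. The arrays compared 3 genotypes: WT-TAF3 cells with no PIP4K2B depletion (WT-TAF3 control), WT-TAF3 cells depleted of PIP4K2B (WT-TAF3 sh-PIP4K2B) and KK-TAF3 cells depleted of PIP4K2B (KK-TAF3 sh-PIP4K2B). Each was either differentiated for 2 days in medium with horse serum or treated with the topoisomerase II inhibitor etoposide at 10 µM for 7 h, with 3 arrays per group and 18 in all. The labels of the WT-TAF3 control name no control hairpin, there was no KK-TAF3 population without PIP4K2B depletion, and the knockdown and rescue constructs were delivered by viral transduction. The etoposide and differentiated arrays differ in drug, medium and time together, and these cannot be told apart. By the submitters' design text, the 3 arrays of each group are biological replicates.

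Keratins form intermediate filaments only as pairs of a type I and a type II chain, and each pairing is typical of a kind of epithelium: Krt5 with Krt14 in basal cells of stratified epithelia, Krt8 with Krt18 in simple epithelia, with Krt19 often joining the latter. Desmosomes tie these filaments to the plasma membrane: desmosomal cadherins bind plakoglobin (Jup) and plakophilins (such as Pkp2) in the plaque, and desmoplakin (Dsp) links the plaque to the filaments. In striated muscle the related filament protein is desmin. Jup also sits at adherens junctions, and Pkp2, Dsp and Jup build the intercalated disc of the heart.

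The genes lie on 4 chromosomes of the mouse assembly GRCm38.p6. Krt14 (chr11:100203162-100207510) and Krt19 (chr11:100140810-100145926) belong to the type I keratin cluster on chromosome 11, where Jup (chr11:100368856-100397839) also lies. Krt5 (chr15:101707069-101712905), Krt8 (chr15:101996711-102004342) and Krt18 (chr15:102028216-102032026) lie on chromosome 15, Dsp (chr13:38151294-38198577) on chromosome 13 and Pkp2 (chr16:16213345-16272712) on chromosome 16. Because TFIID binds core promoters, the sequences around the annotated start sites of both textbook keratin pairs are shown, from 250 bases before to 50 bases after the start, 5′ to 3′ on the gene's strand, from RefSeq. Of the 8 genes, 6 matched a window; Krt19 and Pkp2 did not. Capitals mark the TATA box letters (TATAAA) or an E-box of the kind that myogenic factors bind (CAGCTG), both searched on both strands.
Krt14 (chr11:100205981-100206280, minus strand): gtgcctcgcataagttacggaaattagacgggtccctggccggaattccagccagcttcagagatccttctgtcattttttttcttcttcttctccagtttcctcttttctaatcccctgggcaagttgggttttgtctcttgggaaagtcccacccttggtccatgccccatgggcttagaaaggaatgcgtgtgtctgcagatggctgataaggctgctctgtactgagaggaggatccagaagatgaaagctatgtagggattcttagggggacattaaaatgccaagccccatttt
Krt5 (chr15:101712856-101713155, minus strand): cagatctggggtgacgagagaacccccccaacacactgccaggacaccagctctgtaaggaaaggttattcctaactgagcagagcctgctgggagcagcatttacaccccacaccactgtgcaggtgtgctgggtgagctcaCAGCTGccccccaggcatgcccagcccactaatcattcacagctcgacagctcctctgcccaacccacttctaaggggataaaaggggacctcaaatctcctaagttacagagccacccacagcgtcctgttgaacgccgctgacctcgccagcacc
Krt18 (chr15:102027966-102028265, plus strand): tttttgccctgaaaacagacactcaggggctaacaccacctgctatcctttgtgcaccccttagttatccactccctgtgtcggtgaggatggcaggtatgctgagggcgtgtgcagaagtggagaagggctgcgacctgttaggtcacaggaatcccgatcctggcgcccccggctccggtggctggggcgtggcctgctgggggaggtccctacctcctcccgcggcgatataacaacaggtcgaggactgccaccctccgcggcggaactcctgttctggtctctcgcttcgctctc
Krt8 (chr15:102004293-102004592, minus strand): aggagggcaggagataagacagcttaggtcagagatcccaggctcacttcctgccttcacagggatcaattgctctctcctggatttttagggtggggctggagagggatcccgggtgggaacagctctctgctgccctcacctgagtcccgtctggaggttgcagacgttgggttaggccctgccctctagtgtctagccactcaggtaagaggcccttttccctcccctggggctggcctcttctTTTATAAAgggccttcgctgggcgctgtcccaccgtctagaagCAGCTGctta
The Krt14 window lies inside the annotated span of its gene, whose 5′ end on the minus strand is at 100207510. Its start may therefore be that of another transcript, and the sequence around the 5′ end of the Krt14 span was not searched. TATAAA was present in the Krt8 window alone among the 6 windows, and in 13.6% of all 32851 windows. In the Krt8 window it was read on both strands at overlapping positions that begin at -3 and -1 from the annotated start and run across it. CAGCTG was present once each in the Krt5 and Krt8 windows and in 16.3% of all windows. The 2 letter strings are a description of these windows and were not tested against expression.

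Signals are RMA values on the log2 scale, so a difference of 1 is a doubling. A gene was called different when a linear model of all 18 arrays (limma, moderated test) gave a Benjamini-Hochberg adjusted p under 0.05 over all 19938 genes and a change above 1.4-fold, which is 0.49 on the log2 scale. Differences are given with their SE from that model. Signals of different genes come from different probes and are not set against each other.

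The 8 genes divided by how far their 6 group means lay apart. Krt14 spanned 1.74 log2 units from the lowest to the highest group mean, Krt19 1.47 and Pkp2 1.25. The other 5 spanned 0.44 (Krt8), 0.34 (Krt5), 0.28 (Krt18), 0.26 (Dsp) and 0.20 (Jup), and none of these 5 was called in any of the 11 comparisons made. The values of every array are drawn in the plot of the 8 genes by group.

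**Figure D1:**
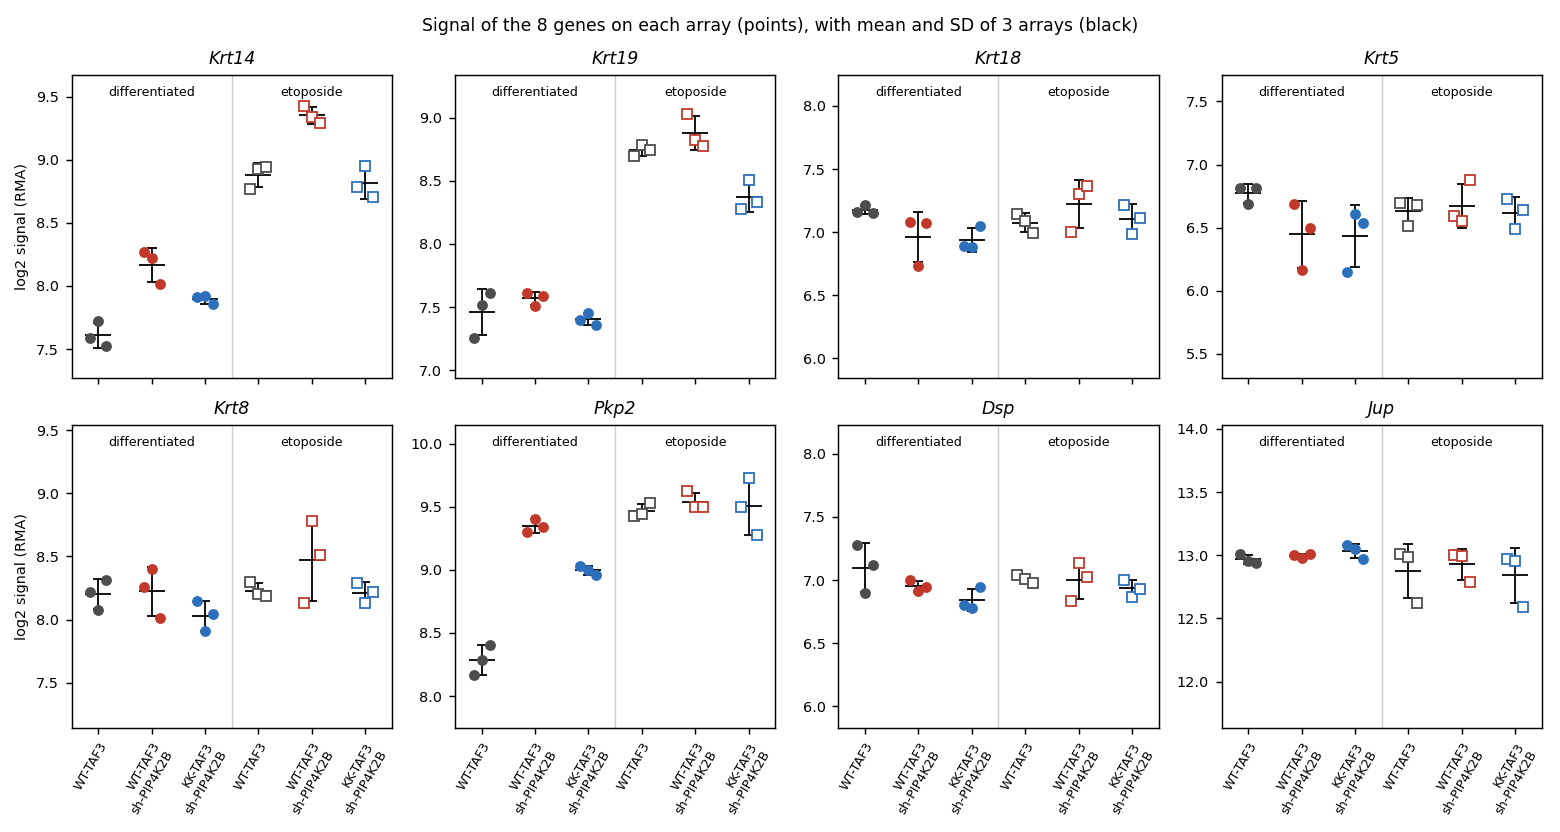
Log2 RMA signal (vertical axis) of each of the 8 genes on each of the 18 arrays, in 3 genotypes after differentiation (filled circles) or etoposide (open squares); black bars give the mean and SD of 3 arrays, and the signal axis starts at a different value for each gene. Krt14 and Krt19 were higher on every etoposide array than on any differentiated array, Pkp2 stood low in the differentiated WT-TAF3 control, and Krt18, Krt5, Krt8, Dsp and Jup stayed within 0.44 between group means.

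Krt14, the basal keratin, read 7.58, 7.72 and 7.52 on the differentiated WT-TAF3 control arrays, 8.26, 8.22 and 8.01 on the WT-TAF3 sh-PIP4K2B arrays and 7.91, 7.92 and 7.85 on the KK-TAF3 sh-PIP4K2B arrays. These 3 groups did not overlap: the control was lowest, the KK-TAF3 cells lay between, and the depleted WT-TAF3 cells were highest. In RNA of whole cultures, as here, more cells with a transcript and more transcript per cell cannot be told apart. After etoposide the signals were 8.77, 8.93 and 8.94 in the control, 9.43, 9.33 and 9.29 in WT-TAF3 sh-PIP4K2B cells and 8.79, 8.95 and 8.70 in KK-TAF3 sh-PIP4K2B cells. Here the depleted WT-TAF3 cells again stood above both other groups, while the KK-TAF3 cells overlapped the control. In rising order of group means the levels were 7.61 ± 0.10 (differentiated control), 7.89 ± 0.03 (differentiated KK-TAF3), 8.17 ± 0.14 (differentiated depleted WT-TAF3), 8.81 ± 0.12 (etoposide KK-TAF3), 8.88 ± 0.10 (etoposide control) and 9.35 ± 0.07 (etoposide depleted WT-TAF3; SD, n = 3 each), and only the fourth and the fifth overlapped.

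Krt19, a type I keratin of simple epithelia that has an unusually short tail, read 7.25, 7.51 and 7.61 in the differentiated control, 7.61, 7.51 and 7.59 in WT-TAF3 sh-PIP4K2B cells and 7.40, 7.45 and 7.36 in KK-TAF3 sh-PIP4K2B cells. The control overlapped both depleted genotypes, and every KK-TAF3 array lay below every depleted WT-TAF3 array. After etoposide it read 8.70, 8.78 and 8.74 in the control, 9.03, 8.83 and 8.77 in WT-TAF3 sh-PIP4K2B cells and 8.28, 8.51 and 8.33 in KK-TAF3 sh-PIP4K2B cells. The KK-TAF3 cells were lowest of the 3 etoposide groups, with no overlap, and the other 2 groups overlapped by 1 array each.

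Pkp2, the plakophilin of simple epithelia and of the heart, read 8.17, 8.29 and 8.41 in the differentiated control, 9.30, 9.41 and 9.34 in WT-TAF3 sh-PIP4K2B cells and 9.03, 8.999 and 8.96 in KK-TAF3 sh-PIP4K2B cells. The 3 differentiated groups did not overlap and had the same order as for Krt14. After etoposide the signals were 9.42, 9.44 and 9.53 in the control, 9.62, 9.50 and 9.49 in WT-TAF3 sh-PIP4K2B cells and 9.50, 9.73 and 9.28 in KK-TAF3 sh-PIP4K2B cells. All 3 etoposide groups overlapped, at means of 9.46 ± 0.06, 9.54 ± 0.07 and 9.50 ± 0.23 (SD, n = 3).

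The remaining 5 genes covered narrow ranges over the 18 arrays. Krt18, the partner of Krt8, lay between 6.73 and 7.36, and Krt5, the partner of Krt14, between 6.15 and 6.87. Krt8 lay between 7.91 and 8.78, the highest value coming from 1 etoposide WT-TAF3 sh-PIP4K2B array. Desmoplakin (Dsp) lay between 6.78 and 7.28. Plakoglobin (Jup) lay between 12.59 and 13.08, and the third array of each etoposide group gave the lowest Jup signal of its group, at 12.63 in the control, 12.78 in WT-TAF3 sh-PIP4K2B cells and 12.59 in KK-TAF3 sh-PIP4K2B cells. Deviations of same-numbered etoposide arrays correlated positively over all genes between the control and either depleted genotype. For the first and second KK-TAF3 arrays this was weak (0.17 and 0.10). Replicate number was therefore also tried as a block. Between the depleted genotypes only the third arrays correlated positively. No detection calls were used here, so whether the dimmest of these signals stand above background is unknown.

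To determine how PIP4K2B depletion was related to these genes during differentiation, WT-TAF3 sh-PIP4K2B cells were compared with the WT-TAF3 control. Pkp2 was higher by 1.06 (SE 0.09) and Krt14 by 0.56 (SE 0.08) in the depleted cells. Both differences were known when the 8 genes were put together, so they are a description, and their number, 2 of 8 where 0.682% of all genes were called higher, is not read as a result. The other 6 genes were not called. Krt5 differed by -0.32 (SE 0.13, adjusted p = 0.12) and Krt18 by -0.21 (SE 0.10, adjusted p = 0.18), each with all 3 depleted arrays below all 3 controls. Krt19 differed by 0.11, Dsp by -0.15, Jup by 0.03 and Krt8 by 0.02, with adjusted p from 0.292 to 0.923. In 4 of the 8 genes the groups did not overlap, as in 44.5% of all genes.

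The brightness of the arrays also differed between these groups. The median signal of the WT-TAF3 sh-PIP4K2B arrays averaged 7.29, against 7.39 for the control arrays, a difference of -0.10, and no array of one group overlapped the other. Among 45 other keratins measured, 44 had a negative difference and 23 lay below the control on all arrays, but none was called. Of all genes, 44.5% did not overlap in this comparison, in either direction. The median difference of these keratins was -0.19, or -0.09 once each array was centred on its median. With centring, Krt5 differed by -0.23 and Krt18 by -0.12, while Krt14 and Pkp2 differed by 0.65 and 1.16. With the median signal of each array as a covariate the differences were -0.19 for Krt5, -0.03 for Krt18, 0.52 for Krt14 and 0.92 for Pkp2. The part of array brightness in the Krt5 and Krt18 values was not tested.

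The KK-TAF3 mutation was then examined in differentiated, PIP4K2B-depleted cells. No member was called: at an unadjusted p under 0.05 and above 1.4-fold the count was also 0, and 0.517% of all genes were called. Pkp2 differed by -0.35 (SE 0.09, adjusted p = 0.0923), Krt14 by -0.27 (SE 0.08, adjusted p = 0.208) and Krt19 by -0.17 (SE 0.09, adjusted p = 0.802) in KK-TAF3 against WT-TAF3 cells. All 3 KK-TAF3 arrays lay below all 3 WT-TAF3 arrays for these 3 genes, where 21% of all genes did not overlap. These WT-TAF3 arrays are the depleted arrays of the comparison above, whose high Pkp2 and Krt14 signals were already known. The lower KK-TAF3 values of Pkp2 and Krt14 are therefore not independent of the choice of genes. The 95% limits of the Pkp2 difference ran from -0.54 to -0.16, so a change of 1.4-fold lay within them. Krt8, Dsp, Jup, Krt5 and Krt18 differed by -0.19, -0.11, 0.04, -0.01 and -0.02.

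Against the WT-TAF3 control, differentiated KK-TAF3 sh-PIP4K2B cells had 1 called member, Pkp2, higher by 0.71 (SE 0.09, adjusted p = 0.000122), where 0.823% of all genes were called higher. Krt14 was higher by 0.29 (SE 0.08, adjusted p = 0.042), which is below 1.4-fold. Krt5 differed by -0.34 (adjusted p = 0.0995), Krt18 by -0.24 (adjusted p = 0.134) and Dsp by -0.26 (adjusted p = 0.0776). The groups did not overlap for Pkp2, Krt14, Krt5 and Krt18, as for 46% of all genes. These control arrays are those of the depletion comparison above, in which the Pkp2 and Krt14 values were already known, and the median signal of the KK-TAF3 arrays also lay below that of the control, at an average difference of -0.09.

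**Figure D2:**
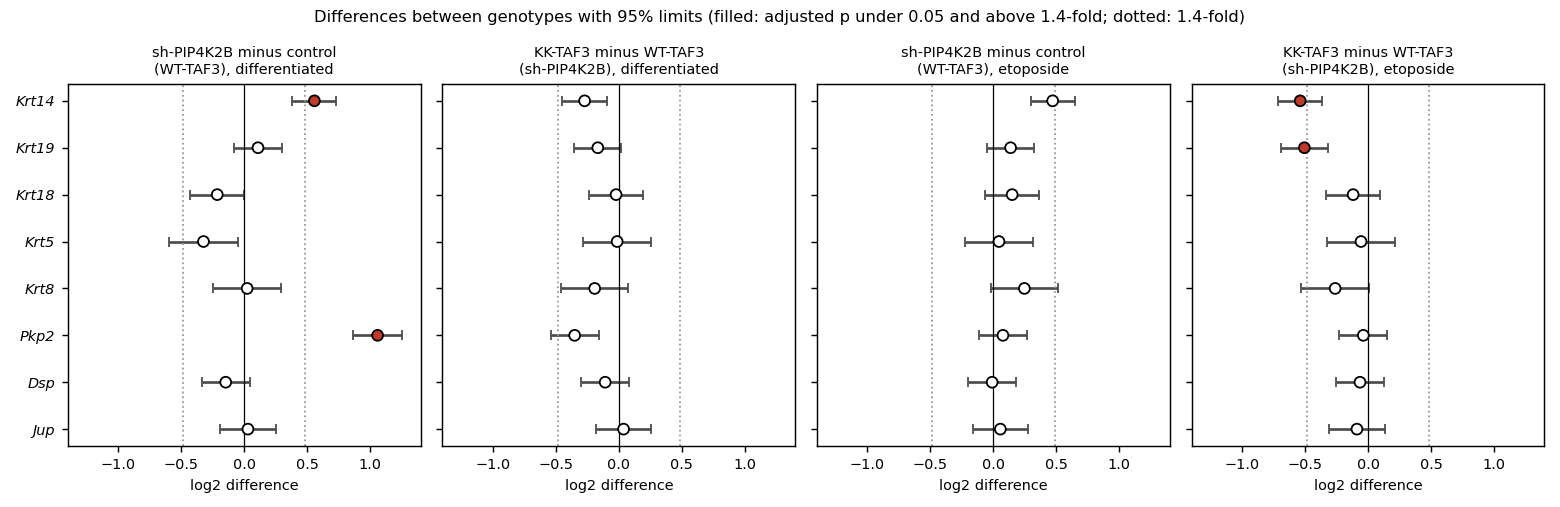
Log2 differences (horizontal axis) of the 8 genes for PIP4K2B depletion and for KK-TAF3 against WT-TAF3, after differentiation and after etoposide, with 95% limits from the model; filled points are past both the adjusted p and the 1.4-fold limit (dotted lines), and the filled Krt14 and Pkp2 points of the first panel were known when the genes were chosen. In PIP4K2B-depleted cells after etoposide, Krt14 at -0.54 and Krt19 at -0.51 were lower with KK-TAF3, and no gene was past the limits for depletion in etoposide, where Krt14 stood at 0.47.

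After etoposide, PIP4K2B depletion left no member past both limits, with 0.868% of all genes called and none past 1.4-fold at an unadjusted p under 0.05. Krt14 came closest, at 0.47 (SE 0.08, adjusted p = 0.0029), which is 1.39-fold and just under the fold limit, and it was the 1 gene of the 8 whose groups did not overlap, where 15% of all genes did not. Krt14 was called in 6 of 30 alternatives, among them the alternative with no fold limit, at the same 0.47. The others were quantile normalization within each treatment (0.52), the array median as a covariate (0.49) and leaving out any 1 of 3 arrays. These arrays were the second (0.49) or the third control array (0.50) or the third depleted array (0.50). Krt8 differed by 0.25 (SE 0.13, adjusted p = 0.346), Krt18 by 0.15, Krt19 by 0.14 and Pkp2 by 0.08 (SE 0.09, adjusted p = 0.68), with 95% limits of the Pkp2 difference from -0.12 to 0.27. Jup, Krt5 and Dsp differed by 0.06, 0.04 and -0.01.

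KK-TAF3 was next compared with WT-TAF3 in etoposide-treated, PIP4K2B-depleted cells. Here 2 members were called lower, beside 0.0652% of all genes, or 13 genes in all. The difference of KK-TAF3 from WT-TAF3 cells was -0.54 for Krt14 (SE 0.08, adjusted p = 0.00224) and -0.51 for Krt19 (SE 0.09, adjusted p = 0.00792), falls of 1.45-fold and 1.42-fold. Both are type I keratins of chromosome 11, and for both all 3 KK-TAF3 arrays lay below all 3 WT-TAF3 arrays. No other member had groups apart, where 10.8% of all genes did not overlap. Krt8 differed by -0.26 (SE 0.13, adjusted p = 0.336), and Krt18, Jup, Dsp, Krt5 and Pkp2 by -0.12, -0.09, -0.06, -0.06 and -0.04.
Both calls stood close to the fold limit. Krt14 lost its call in 1 of 30 alternatives, without the third KK-TAF3 array (-0.48, adjusted p = 0.0169, range over the alternatives 0.000394 to 0.0414). Krt19 lost it in 6: with only the 9 etoposide arrays in the model (adjusted p = 0.0595), with each array centred on its median (-0.47), with replicate number as a block in those 9 arrays (adjusted p = 0.0693), and without the first WT-TAF3 (-0.43), the first KK-TAF3 (-0.46) or the third KK-TAF3 array (-0.49), with adjusted p between 0.00172 and 0.0693 over all 30.

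Against the WT-TAF3 control after etoposide, KK-TAF3 sh-PIP4K2B cells had no called member, where 1.15% of all genes were called, and the count at an unadjusted p under 0.05 and above 1.4-fold was also 0. Krt19 differed by -0.37 (SE 0.09, adjusted p = 0.0258), below 1.4-fold, and was the 1 member with groups apart, as in 14.2% of all genes. Krt14 differed by -0.07 (SE 0.08, adjusted p = 0.879), with 95% limits from -0.24 to 0.11, so a difference of 1.4-fold lay outside them. The comparisons of a treatment share arrays, the WT-TAF3 sh-PIP4K2B or the control arrays, and the Krt14 values of depletion (0.47) and of KK-TAF3 (-0.54) rest on the same 3 depleted WT-TAF3 arrays.

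Whether the 2 treatments differed in the genotype differences was tested directly. For PIP4K2B depletion, the difference after etoposide minus that in differentiated cells was -0.98 for Pkp2 (SE 0.13, adjusted p = 0.000382), the 1 member called, where 2.07% of all genes were called lower. The depletion term contains the Pkp2 and Krt14 differences already known from differentiated cells. The same term was -0.09 for Krt14 (SE 0.12, adjusted p = 0.624), with 95% limits from -0.34 to 0.16. It was 0.37 for Krt5 (adjusted p = 0.169), 0.36 for Krt18 (adjusted p = 0.0997), 0.22 for Krt8, 0.14 for Dsp and 0.03 for both Krt19 and Jup. For KK-TAF3 against WT-TAF3 no member was called, nor at an unadjusted p under 0.05 with 1.4-fold, and 0.15% of all genes were called: the terms were -0.34 for Krt19 (SE 0.13, adjusted p = 0.662), -0.27 for Krt14 (SE 0.12, adjusted p = 0.747) and 0.31 for Pkp2 (SE 0.13, adjusted p = 0.732). The KK-TAF3 calls of Krt14 and Krt19 after etoposide are therefore not shown to differ from the values in differentiated cells.

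Etoposide-treated cells were compared with differentiated cells within each genotype. Krt14 and Krt19 were higher in etoposide-treated cells in all 3 genotypes, with no overlap. Krt14 was higher by 1.27 (SE 0.08) in the WT-TAF3 control, 1.19 (SE 0.08) in WT-TAF3 sh-PIP4K2B and 0.92 (SE 0.08) in KK-TAF3 sh-PIP4K2B cells, with adjusted p from 4.59e-09 to 1.52e-07 in the depleted genotypes and 1.99e-09 in the control. Krt19 was higher by 1.28, 1.31 and 0.97 (SE 0.09 each), at adjusted p of 4.81e-09, 3.02e-09 and 1.88e-07. These are rises of 1.89-fold to 2.48-fold.
Pkp2 was higher by 1.18 (SE 0.09, adjusted p = 1.99e-08) in the control and by 0.51 (SE 0.09, adjusted p = 0.00038) in KK-TAF3 sh-PIP4K2B cells, and was not called in WT-TAF3 sh-PIP4K2B cells at 0.19 (SE 0.09, adjusted p = 0.108). Its call in KK-TAF3 sh-PIP4K2B cells was lost with each array centred on its median (0.44) and without the second etoposide KK-TAF3 array (0.39). Called members therefore numbered 3, 2 and 3 of 8, beside 4.71%, 3.64% and 3.52% of all genes called higher in the 3 genotypes. The Pkp2 and Krt14 values of the control and of WT-TAF3 sh-PIP4K2B cells rest on the differentiated arrays of the known differences. Their calls there are not read as independent. Without Pkp2 the counts were 2, 2 and 2, of Krt14 and Krt19. None of the other 5 members was called in any genotype, the values running from -0.20 (Jup, KK-TAF3) to 0.26 (Krt18, WT-TAF3 sh-PIP4K2B). Krt5, the partner of Krt14, stood at -0.14, 0.23 and 0.18 in the 3 genotypes.

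Similarity of profile was measured as the root mean square difference of the 6 group means after each gene was centred on its own mean. The search covered the genes left after a filter on symbols. That filter dropped predicted genes, Riken clones, olfactory receptors and small RNA genes. It also dropped every symbol starting with Rn, or with a letter from A to E and then a digit, so closer genes among these would have been missed. The gene closest to Krt14 was another member, Krt19 (0.17 log2 units), followed by Ltbp2, a latent TGF-beta binding protein (0.18), and the water channel Aqp1 (0.18). The genes closest to Krt19 were Ltbp2 (0.14), the matrix protein Tnc (0.14) and the actin-capping protein Capg (0.15). The genes closest to Pkp2 were Chrnd, the delta subunit of the muscle acetylcholine receptor (0.10), Pdlim3, a Z-disc protein (0.11), and Nxf3, of the RNA export factor family (0.12). Between members, Pkp2 lay 0.33 from Krt14 and 0.43 from Krt19, and Krt5 lay 0.60 from its partner Krt14 and 0.05 from Krt18. The 5 flat genes, Krt5 and Krt18 among them, each spanned 0.44 or less, which leaves little room for them to lie apart.

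**Figure D3:**
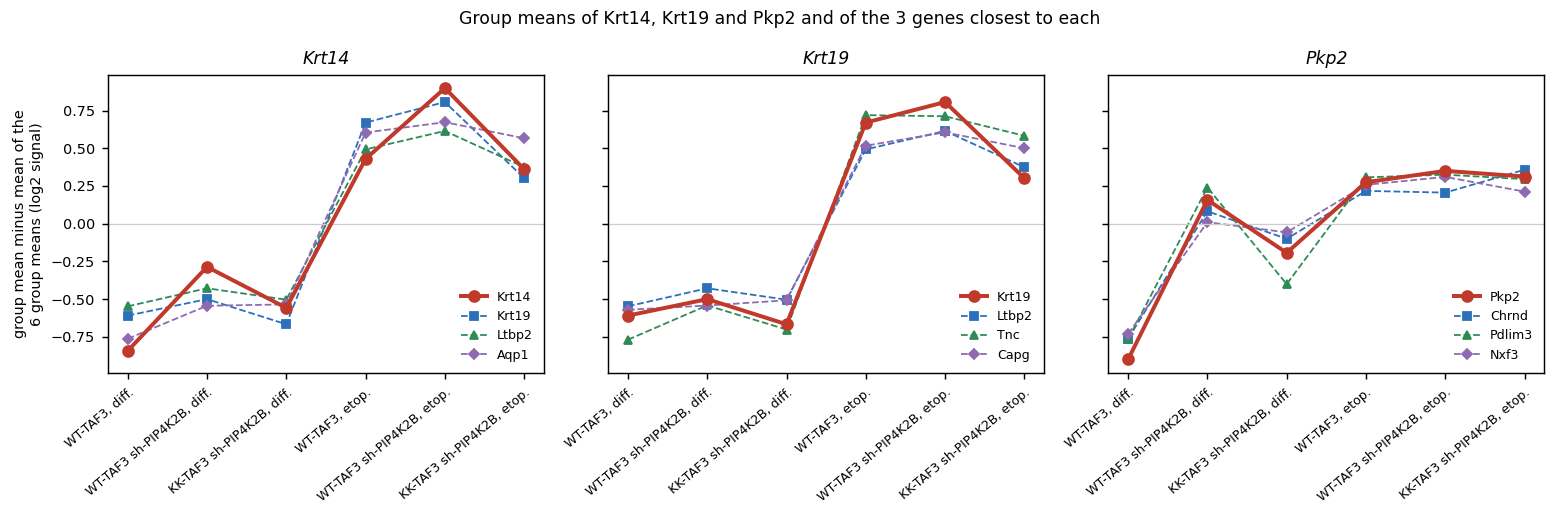
Group mean minus the mean of the 6 group means (log2 signal, vertical axis) in the 6 groups (horizontal axis) for Krt14, Krt19 and Pkp2 (heavy red lines) and the 3 genes nearest to each among those left after the filter on symbols (dashed). Krt14 and Krt19 step up between the differentiated and the etoposide groups, whereas Pkp2, Chrnd, Pdlim3 and Nxf3 are lowest in the differentiated WT-TAF3 control. Pdlim3 is also low in differentiated KK-TAF3 cells, at a mean of 10.13 against 9.76 in the control and 10.77 in WT-TAF3 sh-PIP4K2B cells.

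The rest of the keratin family was largely flat. Of 45 other keratins measured out of 48 listed, 1 was called in a comparison of genotypes within a treatment: Krt80, a type II keratin, was lower in etoposide-treated WT-TAF3 sh-PIP4K2B cells than in the control, with a difference of -0.55 (SE 0.09, adjusted p = 0.0011) that was -0.45 and below the fold limit without the third depleted array. Krt13, a type I keratin of stratified mucosa, was higher in etoposide-treated than in differentiated cells by 0.88 in both depleted genotypes (SE 0.09, adjusted p = 8.66e-07 and 1e-06). Its etoposide means were 7.42, 7.63 and 7.58 and its differentiated means 7.04, 6.75 and 6.70 in the control, WT-TAF3 sh-PIP4K2B and KK-TAF3 sh-PIP4K2B cells. The median difference of the 45 between treatments was -0.10, 0.21 and 0.11 in the 3 genotypes.

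Among 13 other desmosome genes the only one called was Pkp1, the plakophilin of stratified epithelia, higher after etoposide by 0.83 (SE 0.12, adjusted p = 5.23e-05) in the control, 0.55 (adjusted p = 0.00195) in WT-TAF3 sh-PIP4K2B and 0.53 (adjusted p = 0.00321) in KK-TAF3 sh-PIP4K2B cells. With centring the values of the depleted genotypes were 0.44 and 0.47, below the fold limit, and that of KK-TAF3 cells was also below it without the first (0.41) or the second etoposide array (0.48). Pkp1 was not called in any genotype comparison. Pkp1 and Pkp2 were both higher after etoposide in the control. Of 10 hemidesmosome and plakin genes, the laminin receptor subunit Itga6 was higher after etoposide in the control (0.81) and in KK-TAF3 cells (0.71), and was higher in KK-TAF3 than in WT-TAF3 cells after etoposide by 0.61 (SE 0.10, adjusted p = 0.00336), the direction opposite to Krt14 and Krt19; with the 9 etoposide arrays alone its adjusted p was 0.0684. The plakins Dst and Macf1, large linkers between cytoskeletal filaments, were lower after etoposide in WT-TAF3 sh-PIP4K2B cells (-1.22 and -0.77) and in KK-TAF3 cells (-1.22 and -0.62), and Dst also in the control (-0.82). With the array median as a covariate Macf1 was not called in either depleted genotype (-0.40 with adjusted p = 0.146, and -0.41), nor in KK-TAF3 cells without the third etoposide array (-0.46), and Dst in WT-TAF3 sh-PIP4K2B cells stood at -0.74. Without the third etoposide control array Dst in the control was not called (-0.55, adjusted p = 0.0993).

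None of 16 adherens junction genes was called between genotypes within a treatment. After etoposide N-cadherin (Cdh2) was lower in WT-TAF3 sh-PIP4K2B (-0.65) and KK-TAF3 cells (-0.56), and the catenins Ctnna1 (-0.52) and Ctnnd1 (-0.50) in WT-TAF3 sh-PIP4K2B cells. These calls lay close to the fold limit: Ctnna1 and Ctnnd1 lost theirs with the array median as a covariate (-0.35 and -0.38) and without the third etoposide array (-0.47 and -0.42), Ctnnd1 also without the second differentiated array (-0.47), and Cdh2 lost its call in KK-TAF3 cells without the third etoposide array (-0.48). Of 16 intermediate filament genes outside the keratins, the neurofilament light chain Nefl was higher with PIP4K2B depletion in differentiated cells by 0.89 (SE 0.10, adjusted p = 2.7e-05), and higher in KK-TAF3 than in WT-TAF3 cells after etoposide by 0.67 (SE 0.10, adjusted p = 0.00136). Nefm, the medium chain, was higher in KK-TAF3 than in WT-TAF3 differentiated cells by 0.53 (adjusted p = 0.0131), a call lost in 4 of the fits that left out 1 array. After etoposide Nefl was higher than after differentiation in the control (0.87) and in KK-TAF3 cells (1.45). Nefm was higher in WT-TAF3 sh-PIP4K2B cells (0.74) and Prph in KK-TAF3 cells (0.59). The muscle filament gene Des and the nuclear lamina gene Lmna were higher after etoposide in the control (0.50 and 0.53) and in WT-TAF3 sh-PIP4K2B cells (0.51 and 0.50). The Des call was lost in 2 of 27 alternatives in each of these genotypes (0.46 and 0.48 without the first etoposide or the second differentiated control array; 0.40 with centring and 0.45 without the second etoposide depleted array), and the Lmna call of WT-TAF3 sh-PIP4K2B cells in 3 (0.39 with centring, and 0.48 and 0.45 without the third differentiated or the second etoposide array).

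Of 18 transcription factors and other regulators tied to the epithelial state, none was called between genotypes within a treatment. After etoposide Klf4 was higher in all 3 genotypes (0.81, 0.75 and 0.56), as was Twist2 (0.50, 0.82 and 0.74), and Tfap2a, which is known to act on keratin genes, was higher in the control (0.68) and in WT-TAF3 sh-PIP4K2B cells (0.64). Zeb1 and Zeb2, repressors of epithelial genes, were lower in WT-TAF3 sh-PIP4K2B (-0.77 and -0.55) and in KK-TAF3 cells (-0.66 and -0.62), and Snai2 in KK-TAF3 cells (-0.52). With the array median as a covariate Zeb2 was not called in either (-0.26 with adjusted p = 0.207, and -0.45), and in WT-TAF3 sh-PIP4K2B cells also not without the third etoposide array (-0.47). Snai2 lost its call without the first etoposide KK-TAF3 array (-0.48), and Twist2 in the control without the third differentiated or the third etoposide array (0.46 each). These values come from the same arrays on which Krt14 and Krt19 were higher, and any relation between them was not tested.

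**Figure D4:**
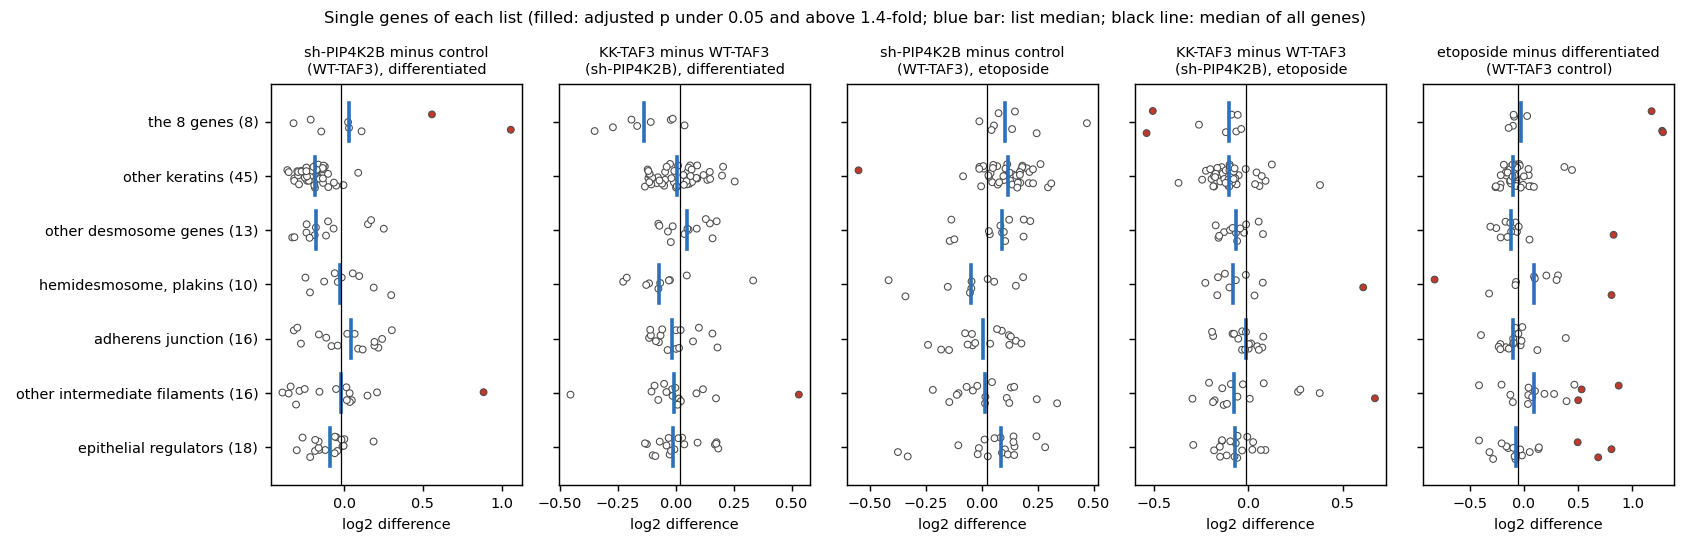
Log2 differences (horizontal axis) of single genes (points) in the 8 genes and 6 lists of related genes, with the number measured in brackets, for 5 comparisons; filled points are past the adjusted p and 1.4-fold limits, blue bars are list medians and the black line is the median of all genes. The other keratins lay at a median of -0.19 for PIP4K2B depletion in differentiated cells, with none called, or -0.09 with each array centred on its median. Krt14 and Pkp2 stood at 0.56 and 1.06 there, values that were known when the genes were chosen.

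The labelled cell type was set against marker lists, each gene on its own probes. Over the 18 arrays the median signals of the 11 myoblast markers ran from 6.39 (Myh3) to 12.96 (Des), those of the 15 epithelial markers from 5.81 (Esrp1) to 8.16 (Cldn3) and those of the 7 fibroblast markers from 7.07 (Thy1) to 12.61 (Dcn). Since these are signals of different probes with no detection calls, they do not settle which markers were expressed. The differences between groups can be read for each gene. None of the 15 epithelial markers was called in the 9 comparisons of groups, nor at an unadjusted p under 0.05 with 1.4-fold, and 1, the claudin Cldn7, was called for the depletion term between treatments (0.58, SE 0.17, adjusted p = 0.049). Their median difference was -0.22 for depletion in differentiated cells, with all 15 negative, and -0.09 for KK-TAF3 after etoposide, and their mean signal lay between 6.68 and 7.06 over the arrays.

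Markers of muscle and of fibroblasts moved in several of the comparisons in which Krt14, Krt19 and Pkp2 were described. With PIP4K2B depletion in differentiated cells, 1 of the 11 myoblast markers was higher (Tnnt2, 0.63), and the mean of the list lay between 9.52 and 9.55 in the control and between 9.68 and 9.71 in WT-TAF3 sh-PIP4K2B cells. With KK-TAF3 in differentiated cells, 4 of the 11 were lower than with WT-TAF3 (Mymk -1.57, Myog -1.02, Myh3 -0.93 and Tnnt2 -0.93), the mean of the list lying between 9.29 and 9.32, and 3 were lower than in the control. None of the 11 was called between genotypes after etoposide. Between treatments 5 were called in the control and 5 in WT-TAF3 sh-PIP4K2B cells. Mymk (-1.28 and -1.81), Myog (-0.77 and -1.01) and Myh3 (-0.60 and -1.01) were lower after etoposide in both. The other called markers were higher: Des (0.50) and Myf5 (0.83) in the control, Des (0.51) and Msc (0.50) in WT-TAF3 sh-PIP4K2B cells. In KK-TAF3 sh-PIP4K2B cells 2 were called, Myf5 (0.53) and Tnnt2 (0.67), both higher. Of the 7 fibroblast markers, Lum was lower with depletion in differentiated cells (-1.06) and Lum and Dcn after etoposide (-0.95 and -1.53), while Dcn was higher in KK-TAF3 than in WT-TAF3 cells after etoposide (1.12). Col1a1, Col3a1, Dcn and Lum were lower after etoposide in each genotype, and the mean of the 7 lay between 10.60 and 11.01 on the differentiated and between 9.53 and 10.14 on the etoposide arrays. The part of these shifts in the values of the 8 genes was not tested.

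Arrays of a group correlated at 0.990 to 0.997. The targeted Pip4k2b was lower in WT-TAF3 sh-PIP4K2B cells than in the control, with differences of -1.14 after differentiation and -0.88 after etoposide (adjusted p = 1.78e-06 and 3.68e-05). In KK-TAF3 against WT-TAF3 depleted cells it differed by 0.31 (adjusted p = 0.255) and 0.17 (adjusted p = 0.411), and was not called. Every differentiated KK-TAF3 array nonetheless lay above every differentiated WT-TAF3 sh-PIP4K2B array for Pip4k2b, whereas the etoposide groups overlapped. Depletion is therefore not shown to be equal in the depleted genotypes. The part of this Pip4k2b difference in the KK-TAF3 values of other genes was not tested. Taf3 was not called in any comparison and, since the rescue construct is itself murine Taf3, is no check of the TAF3 knockdown.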

How the data were processed

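RNA of 18 C2C12 cultures (6 groups of 3) was hybridised to Affymetrix whole-transcript arrays. Per the labels, the authors processed the arrays with Affymetrix Expression Console and RMA, versions not given, and deposited log2 signals, 1 row per transcript cluster. Of 35556 rows, 21789 carried 1 symbol in the platform annotation used here, 1621 several and 12146 none; the brightest row by mean over the 18 arrays was kept for each of 19938 genes. The study's methods name another array generation than that annotation, so names rest on the annotation.

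A linear model with 6 group means was fitted to the log2 values (limma 3.58.1 in R 4.3.3, 12 residual degrees of freedom), with Benjamini-Hochberg adjustment over 19938 genes, an adjusted p under 0.05 and a change above 1.4-fold as limits, and tested on simulated data. The 8 genes, the related gene lists and the markers were chosen with earlier results of these data known. Named genes are the 8 genes, list genes past the limits, the 3 closest profiles (after the filter on symbols) of members spanning at least 1 log2 unit, marker genes of the cell type check, Pip4k2b and Taf3. Sample groups come from titles, which give 2 days of differentiation; the series design text gives 3. Precision is limited by 3 arrays per group.

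Replicate numbers come from the titles. Deviations of same-numbered arrays correlated at 0.332 to 0.559 between the etoposide control and WT-TAF3 sh-PIP4K2B arrays and at 0.100 to 0.593 between the control and KK-TAF3 arrays. The numbers were therefore treated as a possible pairing of the control with each of these groups. Arrays of different treatments also reached 0.363 (second differentiated WT-TAF3 sh-PIP4K2B and second etoposide KK-TAF3 array), so a pairing is not shown. Between the etoposide WT-TAF3 sh-PIP4K2B and KK-TAF3 arrays the values were -0.291, -0.194 and 0.478, so only the third arrays deviated together there. Over all 45 same-numbered pairs the range was -0.418 to 0.593, with 16 over 0.1. The alternatives were other thresholds, priors, filters, rows and normalizations, array median as a covariate, replicate number as a block, and leaving out each array; the block within the 9 etoposide arrays was added after the data were seen.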

Additional observations from a re-analysis of the deposited data

Results flagged for a closer look

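The difference between treatments in a genotype effect, tested as the interaction term of the limma model with adjustment over all genes, was past the limits for 1 of the 8 genes and for several related genes. Groups of 3 arrays are too small for a test of single outlying arrays.

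Pkp2 was higher with PIP4K2B depletion in differentiated cells (means 9.35 against 8.29) and overlapped the control after etoposide (9.54 against 9.46), a difference between treatments of -0.98 (SE 0.13, adjusted p = 0.000382). The term is made up almost wholly of the difference in differentiated cells (1.06), which was known when Pkp2 was chosen, so its p is not independent evidence. Cdh15, the muscle cadherin, gave -0.54 (SE 0.10, adjusted p = 0.00503), from means of 11.49 against 11.19 in differentiated cells and 11.34 against 11.58 after etoposide.

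For 4 other keratins the term was positive: 0.5 for Krt13 (adjusted p = 0.0348), 0.52 for Krt74 (adjusted p = 0.0264), 0.55 for Krt86 (adjusted p = 0.0432) and 0.55 for Krt87 (adjusted p = 0.0424). In all, 4.02% of all genes were past the limits for this term. Krt13 lost its call in 12 of 26 alternatives, Krt74 in 9 of 26, Krt86 in 15 of 26 and Krt87 in 14 of 27, of which 9, 6, 11 and 10 left out a single array, and the lowest values were 0.36, 0.37, 0.25 and 0.21. The median of this term over the 45 other keratins was 0.33, or 0.19 with each array centred on its median. Array medians moved the same way, at -0.10 for depletion in differentiated cells and 0.05 after etoposide; the part of array brightness in these 4 values was not tested.

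Nefl gave -0.55 for PIP4K2B depletion (SE 0.14, adjusted p = 0.0334), a call lost in 10 of 27 alternatives, 8 of which left out a single array, with a smallest value of -0.32. It gave 1.13 for KK-TAF3 against WT-TAF3 (SE 0.14, adjusted p = 0.000899), called in all 27 alternatives. Its group means were 7.13, 8.01 and 7.56 after differentiation and 8.001, 8.34 and 9.01 after etoposide in the control, WT-TAF3 sh-PIP4K2B and KK-TAF3 sh-PIP4K2B cells.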

How the results depend on the processing

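The 88 differences of the 8 genes had 2463 alternatives in all. No difference that was past the limits, in the main fit or in an alternative, changed direction. Some that were not past the limits changed sign, such as Krt18 for KK-TAF3 against WT-TAF3 in differentiated cells (-0.02, range -0.14 to 0.04). Alternatives that changed only the threshold keep the same fit, so direction could not change in them. Member counts differed from those reported as follows. With no fold limit they were 2 for KK-TAF3 sh-PIP4K2B against the control in differentiated cells (Krt14, Pkp2), 1 for depletion after etoposide (Krt14) and 1 for KK-TAF3 sh-PIP4K2B against the control after etoposide (Krt19). For depletion after etoposide the count was also 1 with quantile normalization within each treatment and with the array median as a covariate, and 0 to 1 when single arrays were left out. For KK-TAF3 against WT-TAF3 after etoposide the count was 1 with only the 9 etoposide arrays, with each array centred on its median and with the replicate block in those 9 arrays, and 0 to 2 when single arrays were left out, 0 without the third KK-TAF3 array. For etoposide in KK-TAF3 sh-PIP4K2B cells it was 2 to 3. The replicate block over all 18 arrays, and the block for the possibly paired etoposide groups, changed no other count. Centring on array medians shifted depletion in differentiated cells by 0.10, etoposide in WT-TAF3 sh-PIP4K2B cells by -0.11 and the depletion term between treatments by -0.14. For that term 4.02% of all genes were past the limits, against 0.481% with the array median as a covariate; with that covariate Cdh15 stood at -0.49 (adjusted p = 0.0692), still past 1.4-fold, and Nefl at -0.32 (adjusted p = 0.523). Quantile normalization within treatments and 9-array fits give no value across treatments and were not run there. No detection calls were used here, so dim signals (Krt5, Krt18, Dsp) carry no bound.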
